A study of Gallus gallus with 24 samples.

Results

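Explants of retinal pigment epithelium (RPE) that had been cultured with fibroblast growth factor 2 (FGF2) for 48 h were compared with explants cultured for the same time without it. The comparison takes 6 of the 24 poly(A) RNA-seq libraries of the series, 3 with FGF2 at 10 ng/ml and 3 controls in maintenance medium alone. Of 24356 gene rows in the table, the 15001 whose normalized counts averaged 10 or more across the whole series were tested. The RPE came from chicken embryos at embryonic day 4, and each library is 1 biological replicate of 3 pooled explants. None of the 6 libraries used here had dichloroacetate (DCA), an inhibitor of the pyruvate dehydrogenase kinases. The remaining groups of the series, with 3 libraries each, were FGF2 and control at 24 h, and DCA at 20 mM with or without FGF2 at 24 and 48 h. They enter below only where the 48 h response was set against the response at 24 h or under DCA.

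The RPE is the pigmented, single-layered epithelium behind the neural retina, and both layers arise from the optic vesicle. FGF ligands act through receptor tyrosine kinases and the RAS, RAF and ERK cascade, which switches on ETS transcription factors and its own inhibitors. In the early optic vesicle FGF signals favour neural retina, while BMP and WNT signals with the factors MITF and OTX2 favour RPE. The chick embryo is a classical model of this choice, because young RPE loses pigment and turns towards neural retina when FGF2 is supplied.

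At an adjusted p under 0.05, 8187 of the 15001 genes were called, which is 54.6% of them, with 4036 higher (26.9%) and 4151 lower (27.7%) in FGF2 explants than in controls. These shares are the background for every count of genes given below. The 3 FGF2 and 3 control libraries did not overlap for 64.9% of all tested genes, 31.8% higher and 33.1% lower. That share is the background wherever groups are said below not to overlap. Most called genes moved by less than 2-fold, the median absolute log2 fold change among them being 0.71. A change of at least 2-fold was called for 3015 genes (20.1%), 1234 with higher levels (8.23%) and 1781 with lower levels (11.9%), and of at least 8-fold for 224 higher and 169 lower. The median log2 fold change of all tested genes was -0.018. The depth recovered from the table was 36888681, 42441142 and 72724381 reads in the FGF2 libraries and 38363448, 47066340 and 37394131 reads in the controls. Across genes, replicates of a group correlated at a Pearson r of 0.972 to 0.980, and libraries of different groups at 0.895 to 0.912. Values below are normalized counts, given for replicates 1, 2 and 3 or as mean ± SD (n = 3), and changes are log2 fold changes of FGF2 over control ± SE on the log2(normalized count + 1) scale, with the adjusted p of limma.

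Explants can carry other cells, and their markers moved with the comparison. Of 21 markers of the mesenchyme around the eye, 20 were lower and 0 higher in FGF2 explants, with a median of -2.53. Their summed level was 65447 to 76543 in the FGF2 libraries and 333007 to 393839 in the controls, and TCF21, a mesenchymal transcription factor, was at 0 in all 3 FGF2 libraries. Endothelial markers were lower in 14 of 14 cases (sums 10265 to 11450.0 with FGF2, 41245 to 61299 in control), red blood cell markers in 9 of 11 (sums 15036 to 26200.0 with FGF2, 71159 to 113286 in control) and macrophage and leukocyte markers in 15 of 19 (sums 12761 to 15012 with FGF2, 29889 to 39027 in control). Markers of neural crest, its glia and melanocytes, and muscle were lower in 13 and higher in 4 of 19 cases, with sums of 5934 to 8056 in FGF2 libraries and 15223 to 18787 in controls. Of 22 lens and surface ectoderm markers with a row, 14 were tested, 3 of them higher and 4 lower. These counts are near the shares of all genes (26.9% higher, 27.7% lower). In bulk RNA, fewer cells of a type and less RNA per cell cannot be told apart, and the part of these other cells in the gene groups below was not tested. Defining RPE genes were read in all 6 libraries, TYR averaging 4000.2 ± 547 in FGF2 explants and 27337 ± 1770.3 in controls, and RPE65 203 ± 54.6 in FGF2 explants and 1106 ± 198 in controls.

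Most genes of the RPE state were lower with FGF2. Of 21 genes of melanin synthesis and the melanosome, 16 were lower and 1 higher, with a median of -1.18. Of 25 other genes listed with the RPE, 18 were lower and 3 higher, with a median of -1.24. This list also holds the optic stalk factor PAX2 and the BMP antagonist CHRDL1, which are not typical of RPE and are among those that rose. TYR (ENSGALG00000017237), tyrosinase, which catalyses the first steps of melanin synthesis, had 4279, 4352 and 3369.6 normalized counts in FGF2 explants, against 28142, 28562 and 25307 in controls, without overlap (-2.78 ± 0.24, adjusted p = 2.3e-09). Its relatives in the pathway were lower as well, DCT (-1.82 ± 0.19, adjusted p = 5.8e-08) and TYRP1 (-1.63 ± 0.26, adjusted p = 1.9e-05). PMEL (ENSGALG00000035350), which forms the fibrils on which melanin is laid down, had 21351, 18059.8 and 14862 in FGF2 explants and 72838, 81446 and 72467 in controls (-2.08 ± 0.18, adjusted p = 2.4e-09). The melanosome membrane protein MLANA averaged 83.3 ± 58.9 in FGF2 explants and 1215 ± 250.1 in controls and had the largest fall of the melanosome list (-4.05 ± 0.32). OCA2, an ion transporter of the melanosome (-1.70 ± 0.11), the pigment cell receptor GPR143 (-2.53 ± 0.28) and RAB38, which directs enzymes to the melanosome (-2.69 ± 0.24), were also lower. The single member that rose was HPS4, a trafficking protein (0.41 ± 0.17, adjusted p = 0.045), and its call was lost without any 1 of the 6 libraries (adjusted p = 0.0529 to 0.12). Melanosome proteins are made by crest melanocytes as well as RPE, and the melanocyte and crest factor SOX10 stood at 2842 ± 644 in FGF2 explants and 7895 ± 874 in controls (-1.49 ± 0.24). Of the 19 crest and muscle markers, of which SOX10 is 1, 13 fell and 4 rose. Their median was -1.83, with a range of -5.32 to 3.63. The part of crest melanocytes in the pigment gene values was not tested.

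The regulators of the RPE fell by unequal amounts. MITF (ENSGALG00000039583), the master regulator of pigment genes, had 915, 799.8 and 805 in FGF2 explants, against 1335, 1385 and 1129 in controls (-0.61 ± 0.12, adjusted p = 0.0002). Its close relative TFEC (ENSGALG00000040557) had 96.4, 58.3 and 98.9 in FGF2 explants and 744, 623 and 728 in controls, a far larger fall (-3.07 ± 0.28, adjusted p = 8.2e-09). OTX2 (ENSGALG00000034889), the homeobox partner of MITF, had 7506, 7800.1 and 6939 in FGF2 explants and 16546, 16129 and 17501 in controls (-1.17 ± 0.079, adjusted p = 6.6e-11). The groups did not overlap for any of these regulators. OTX1, an OTX2 paralog, averaged 258 ± 37.3 in FGF2 explants and 317 ± 40.3 in controls and did not pass (-0.30 ± 0.22, adjusted p = 0.27).

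Genes of the visual cycle, in which the RPE regenerates the chromophore of the photoreceptors, were mostly lower. RPE65, the isomerase of the cycle, had 263, 188 and 157 in FGF2 explants and 1222, 877 and 1219 in controls (-2.46 ± 0.37, adjusted p = 7.4e-06). RLBP1, which carries 11-cis retinoids, averaged 10619 ± 3534 in FGF2 explants and 28277 ± 1997 in controls (-1.46 ± 0.28). The retinol receptor STRA6 (-2.17 ± 0.21), the retinol dehydrogenase RDH10 (-2.21 ± 0.13) and the opsins RGR (-1.80 ± 0.30) and RRH (-2.18 ± 0.34) of the RPE fell as well, while LRAT, which esterifies retinol, did not pass (-0.59 ± 0.55, adjusted p = 0.39) except without the first FGF2 replicate (-1.39, adjusted p = 0.024), and was 0.18 without the second. TTR, the carrier of thyroid hormone and of the retinol-binding complex, was also lower (-1.42 ± 0.43, adjusted p = 0.0072), but not called without the third FGF2 replicate (-0.94, adjusted p = 0.072). The 3 genes of the RPE list that rose were CHRDL1, a BMP antagonist, the optic stalk factor PAX2 and the tight junction claudin CLDN19, and they are described with the patterning and junction genes.

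Ion channels and transporters followed the same direction, 18 of 32 lower and 5 higher. The basolateral chloride channel protein BEST1 averaged 806 ± 145 in FGF2 explants and 3406 ± 406 in controls (-2.09 ± 0.26), and the apical potassium channel KCNJ13 778 ± 149 in FGF2 explants and 4217 ± 390.4 in controls (-2.45 ± 0.36). SLC16A8, the lactate transporter of the RPE (-1.88 ± 0.41), the sodium, potassium and chloride cotransporter SLC12A2 (-1.98 ± 0.15) and the sodium pump subunit ATP1B1 (-1.27 ± 0.12) were lower. SLC1A3, a glutamate transporter of glia and progenitors, rose (1.61 ± 0.22, adjusted p = 1.6e-06). Lysosomal genes, whose organelle shares its biogenesis with the melanosome, numbered 37 lower and 2 higher of 50, with a median of -0.41. CTSD, the aspartyl protease cathepsin D (-1.09 ± 0.13), and PSAP, the precursor of the saposins (-0.74 ± 0.077), were among those that fell, and CTSH (0.68 ± 0.17) was among those that rose.

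Retinal progenitor genes moved the other way. Of 25 tested, 20 were higher and 1 lower, with a median of 1.16. SOX2 (ENSGALG00000043460), a neural stem cell factor, had 3217, 2848 and 2883 normalized counts in FGF2 explants, against 58.6, 73.9 and 55.3 in controls (5.56 ± 0.26, adjusted p = 3.2e-13). FABP7 (ENSGALG00000038933), the fatty acid-binding protein of neural progenitors and radial glia, had 128188, 130634 and 139978 in FGF2 explants and 3288, 4079 and 2329 in controls (5.40 ± 0.17, adjusted p = 4.4e-15). All 3 FGF2 libraries were above all 3 controls for both of these genes. The eye-field homeobox factors were higher too, SIX6 (2.89 ± 0.13), SIX3 (2.14 ± 0.12), PAX6 (1.94 ± 0.16), RAX (1.93 ± 0.25), its paralog RAX2 (2.97 ± 0.16) and LHX2 (0.78 ± 0.10). PAX6 averaged 26294 ± 2159 in FGF2 explants and 6943 ± 1495 in controls. DACH2, a retinal determination factor, was the member that fell (-0.74 ± 0.15, adjusted p = 0.00017). SOX9, found in both RPE and retinal progenitors, was 2348 ± 413 in FGF2 explants and 2216 ± 433 in controls and did not pass (0.087 ± 0.19, adjusted p = 0.72).

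Genes that give the eye its axes were mixed, 12 of 30 higher and 8 lower. SMOC1, a secreted antagonist of BMP signals, had 6091, 4889 and 5769 in FGF2 explants and 80.9, 149 and 130.0 in controls, without overlap (5.57 ± 0.22, adjusted p = 5.2e-14). CHRDL1, also known as ventroptin in chick, is expressed ventrally in the retina and binds BMP4, and had 30789, 31732 and 31462 in FGF2 explants and 1109, 1276 and 1361 in controls (4.65 ± 0.29, adjusted p = 1.8e-11). The ventral factors VAX1 (1.80 ± 0.15) and PAX2 (3.48 ± 1.06) and the ventral retinaldehyde dehydrogenase ALDH1A3 (3.28 ± 0.22) rose. Among nasal factors HMX1 (2.73 ± 0.31) and SOHO-1 (2.04 ± 0.23) rose, while the temporal factor FOXD1 was barely lower (-0.38 ± 0.16, adjusted p = 0.046), a call lost under several other fits and without any 1 library but the second FGF2 replicate (adjusted p = 0.055 to 0.22). BMP4, the dorsal signal, fell (-0.88 ± 0.17, adjusted p = 0.00011), and the dorsal factor TBX5 did not pass (147 ± 19.5 in FGF2 explants, 138 ± 50.7 in controls, 0.15 ± 0.27, adjusted p = 0.66). A dorsal enzyme went the opposite way to BMP4, since ALDH1A1 was listed at 139, 131 and 111 in FGF2 explants and 4.04, 3.28 and 0 in controls (5.52 ± 2.01, adjusted p = 0.025). The spread of this gene was wide in other groups of the shared fit, for example 233 ± 393 in FGF2 explants at 24 h, and the call was lost without the third control or without the first or second FGF2 replicate (adjusted p = 0.0547 to 0.087), its change being 4.78 without the third control.

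**Figure D1:**
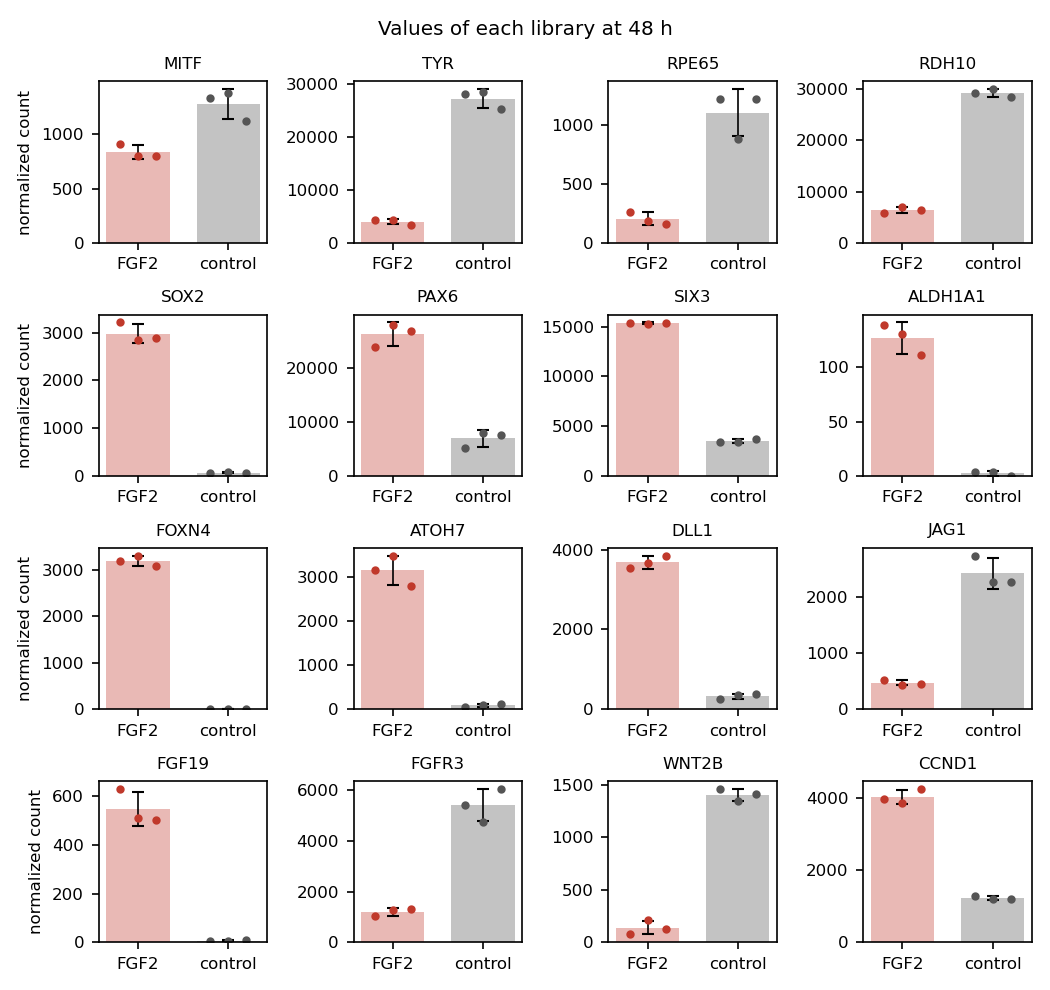
Normalized counts at 48 h are drawn for 16 genes, FGF2 left of control, with a point for each library, a bar at the group mean and an error bar of 1 SD (n = 3). In each panel the 3 FGF2 points and the 3 control points lie on separate levels, TYR, RPE65 and RDH10 below and SOX2, FOXN4 and ATOH7 above the controls.

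Factors that start neuron formation rose strongly where they rose. Of 37 such genes with a row, 30 reached the average of 10 and were tested. Of these, 14 were higher and 4 lower, with a median of 0.52. A gene made only with FGF2 can reach that average, while one silent throughout cannot, so this count can lean upward. FOXN4 (ENSGALG00000005062), which directs progenitors to amacrine and horizontal cells, had 3186, 3299 and 3075 in FGF2 explants and 10.1, 14 and 9.21 in controls (8.06 ± 0.31, adjusted p = 4.4e-14). ATOH7 (ENSGALG00000052760), needed for retinal ganglion cells, had 3176, 3481 and 2809.6 in FGF2 explants and 56.6, 99.4 and 109.5 in controls (5.19 ± 0.29, adjusted p = 4.7e-12). The groups were wide apart for both. PTF1A, an amacrine and horizontal cell factor, had 157, 127 and 121 in FGF2 explants and 0 in all 3 controls, so that it was at least 47.2-fold higher, a lower bound set by 3 reads per library. BHLHE22, of amacrine and bipolar cells (5.12 ± 0.45), ISL1, of ganglion and other cells (4.04 ± 1.25), and LHX1, of horizontal cells (4.34 ± 1.28), also rose. The calls of ISL1 and LHX1 were lost without the third control (2.68, adjusted p = 0.082 and 3.22, adjusted p = 0.0523). Without the first control these changes were 4.64 for ISL1 and 5.13 for LHX1, and without the second 4.80 for ISL1. NEUROD1, of later neurons and photoreceptors, had 4689 ± 283 in FGF2 explants and 4472 ± 335 in controls and did not pass (0.069 ± 0.15, adjusted p = 0.73). The 4 that fell were TFAP2A (-1.83 ± 0.29), TFAP2B (-2.65 ± 0.33), EBF1 (-1.66 ± 0.13) and EBF3 (-1.58 ± 0.33), which are also made in neural crest and mesenchyme. The mesenchymal markers given above fell beside them, and their part in these values was not tested.

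Genes for proteins of young neurons were higher in 14 and lower in 4 of 25 cases, with a median of 1.14 and a range of -2.28 to 6.61. The summed level of the list differed less, 52648 to 59841 in the FGF2 libraries and 42438 to 46488 in the controls. MAP2, MAPT, CRMP1 and DPYSL3, with the highest means among the members not called, did not pass. DCX, a microtubule protein of migrating neurons, had 2875, 2629 and 3088 in FGF2 explants and 91, 92.8 and 87 in controls (4.97 ± 0.22, adjusted p = 2.3e-13). STMN2, a regulator of microtubules in growing axons, had 1185, 808 and 865 in FGF2 explants and 37.4, 45.2 and 0 in controls (6.28 ± 0.86, adjusted p = 2.2e-06). Its fold change depends on the control at 0, being 4.48 without the third control, 7.11 without the first and 7.25 without the second. The growth cone protein GAP43 (4.10 ± 0.45) and the helix-loop-helix factor NHLH1 (2.81 ± 0.41) rose. A gene of the synapse moved the other way, with SNAP25, of the fusion machinery, lower (-1.34 ± 0.14, adjusted p = 4.1e-08). Phototransduction genes numbered 9 lower and 1 higher of 21, and the call of the one that rose, the rod phosphodiesterase subunit PDE6B (1.89 ± 0.69, adjusted p = 0.025), was lost without any 1 library but the first FGF2 replicate.

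Notch signalling, in which neighbouring cells hold each other back from differentiation, was split by family member. Of 25 genes, 11 rose and 8 fell. Among ligands DLL1, made by cells entering neurogenesis, averaged 3685 ± 158 in FGF2 explants and 327 ± 63.8 in controls (3.51 ± 0.18), while JAG1 had 520.4, 437 and 446 in FGF2 explants and 2725, 2249 and 2255 in controls (-2.36 ± 0.17, adjusted p = 1.3e-10). Of the receptors NOTCH1 rose (1.44 ± 0.11) and NOTCH2 fell (-1.41 ± 0.076, adjusted p = 2.8e-12). Among the effectors HES5 (ENSGALG00000001141) had 5084, 5687 and 4666 in FGF2 explants and 79.8, 75.6 and 169.9 in controls (5.65 ± 0.34, adjusted p = 1.2e-11), and HES1 rose little (0.47 ± 0.088), while HEY2 (-1.82 ± 0.29) and HEYL (-0.83 ± 0.13) fell. The fringe enzyme LFNG, which tunes the receptor (1.30 ± 0.08), and the feedback inhibitor NRARP (2.25 ± 0.18) rose.

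In the FGF pathway itself, ligands and receptors divided. Of 16 tested, 5 rose and 6 fell. FGF19, a ligand of the early neural retina in chick, had 629, 511 and 501 in FGF2 explants and 6.06, 6.57 and 8.19 in controls (6.11 ± 1.02, adjusted p = 2.7e-05). FGF1 had 452, 443 and 320.4 in FGF2 explants and 0, 18.1 and 20.5 in controls (5.76 ± 1.32, adjusted p = 0.00082), and FGF9 146, 101 and 93.4 in FGF2 explants and 5.05, 18.9 and 0 in controls (4.51 ± 0.75, adjusted p = 2.7e-05). The FGF1 change was 4.31 without the first control, which is at 0, 6.44 without the second and 6.52 without the third. That of FGF9 was 3.36 without the third control, which is at 0, and 5.51 without the second. Both ligands signal in the developing retina, and neither overlapped between the groups. The transcript of FGF2 itself was lower (82.3 ± 24.3 in FGF2 explants, 168 ± 28.6 in controls, -1.05 ± 0.30), as were FGF10 (-1.19 ± 0.33) and FGF7 (-1.92 ± 0.31), which are made in mesenchyme. Of the receptors FGFR1 rose (0.65 ± 0.065), whereas FGFR2 (-1.42 ± 0.14) and FGFR3 (-2.17 ± 0.19) fell. FGFR1 averaged 20791 ± 903 in FGF2 explants and 13207 ± 345 in controls, and FGFR3 1202 ± 154 in FGF2 explants and 5411 ± 639 in controls.

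Feedback genes and ETS factors of the ERK cascade were divided at 48 h, 10 of 19 higher and 6 lower. The ERK phosphatase DUSP6 had 4605, 4277 and 4944 in FGF2 explants and 1726, 1470.0 and 1589 in controls (1.53 ± 0.14, adjusted p = 4.1e-09), and DUSP4 rose by 2.05 ± 0.12. The receptor-level inhibitors SPRY1 (1.30 ± 0.14), SPRY2 (1.51 ± 0.13) and SPRY4 (1.24 ± 0.31) rose, while SPRY3 fell (-1.75 ± 0.43). Of the ETS factors, ETV4 (0.84 ± 0.11) and ETV5 (0.92 ± 0.12) rose, and ETS1 (-2.72 ± 0.14) and ETS2 (-1.77 ± 0.15) fell. ETS1 is also a factor of endothelium and mesenchyme, whose markers fell beside it. Immediate-early factors, which respond within minutes of a stimulus, numbered 8 lower and 2 higher of 18, with EGR1, a zinc-finger factor of this class, among the lower ones (-1.22 ± 0.11, adjusted p = 9.7e-09).

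**Figure D2:**
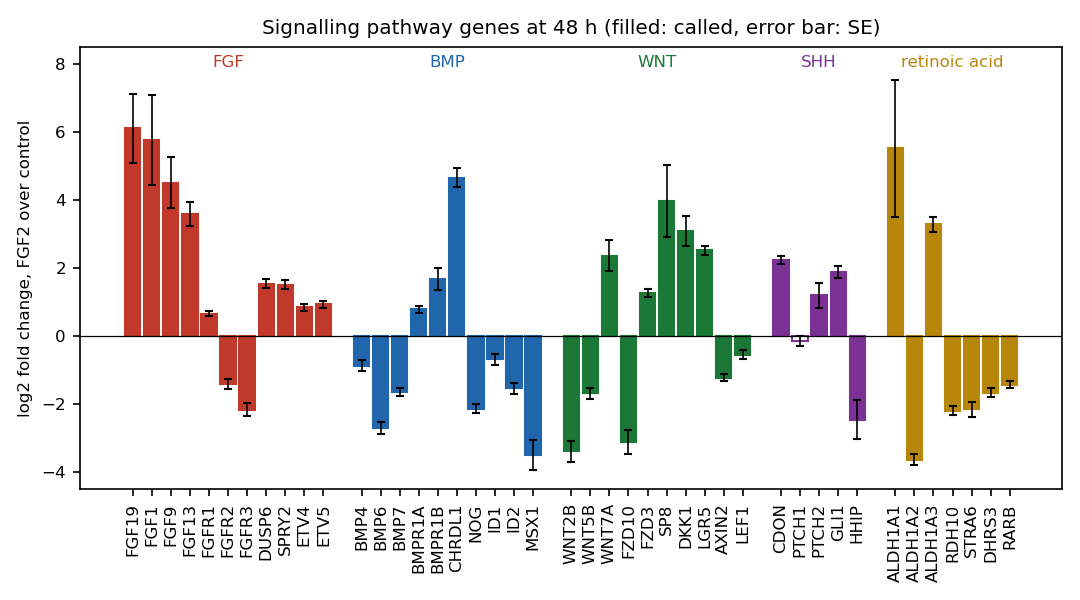
Bars give the log2 fold change of FGF2 over control at 48 h on the y axis, with an error bar of 1 SE, for genes of the FGF, BMP, WNT, hedgehog (SHH) and retinoic acid pathways along the x axis, and filled bars are called genes. FGF19, FGF1 and FGF9 lie above 0 and FGFR2 and FGFR3 below it, as do BMP6, BMP7 and WNT2B.

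BMP and TGF-beta genes were lower in 20 and higher in 8 of 42 cases. Among ligands BMP6 had 169.8, 203 and 182 in FGF2 explants and 1085, 1259.7 and 1303 in controls (-2.71 ± 0.17, adjusted p = 3.6e-11), and BMP7, a signal for RPE formation in chick, 939.8 ± 175 in FGF2 explants and 2918 ± 163 in controls (-1.65 ± 0.12). Response genes of the pathway were divided. MSX1 (-3.50 ± 0.44), MSX2 (-2.78 ± 0.20), ID2 (-1.55 ± 0.15) and ID1 (-0.69 ± 0.17) fell. ID4 rose (1.10 ± 0.11) and ID3 did not pass (-0.071 ± 0.11, adjusted p = 0.62). The mesenchyme markers given above fell beside the lower ones, and their part in these values was not tested. The MSX1 change was -2.76 without the third FGF2 replicate and -4.11 without the second. Receptors were split, BMPR1B higher (1.67 ± 0.32) and TGFBR2 lower (-1.66 ± 0.14). The antagonist NOG fell (-2.15 ± 0.13), while CHRDL1 and SMOC1 rose as given above.

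WNT genes were lower in 21 and higher in 12 of 44 cases. WNT2B (ENSGALG00000034196), a ligand of the RPE and ciliary margin, had 84.4, 211 and 128 in FGF2 explants and 1454, 1344 and 1411 in controls (-3.40 ± 0.30, adjusted p = 3.3e-09). AXIN2, a feedback inhibitor and usual readout of beta-catenin signalling, fell (-1.24 ± 0.10, adjusted p = 9.9e-10), as did APCDD1, an inhibitor of WNT signalling (-1.54 ± 0.21), and the receptor FZD10 (-3.12 ± 0.35). In the other direction the inhibitor DKK1 (3.08 ± 0.44), its family member DKK3 (1.56 ± 0.14) and the R-spondin receptor LGR5 (2.52 ± 0.13) rose. LGR5 averaged 3535 ± 234 in FGF2 explants and 615 ± 33.8 in controls. Of 11 hedgehog genes 5 rose and 2 fell, with the target GLI1 higher (1.88 ± 0.18) and the target and receptor PTCH1 not passing (-0.16 ± 0.15, adjusted p = 0.37). Of 19 retinoic acid genes 6 were higher and 7 lower, not far from the shares of all genes (26.9% higher, 27.7% lower). The synthesis enzyme ALDH1A2, of mesenchyme, fell (-3.64 ± 0.15), whereas ALDH1A1 and ALDH1A3 rose as given above. The receptor RARB, a common target of the pathway, fell (-1.44 ± 0.10). The mesenchymal marker sums given above fell beside ALDH1A2.

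Cell division genes were higher almost without exception. All 49 mitotic genes were called higher, with a median of 2.04 and a range of 0.63 to 2.75, and 41 of 42 replication genes rose with a median of 1.74 and none fell. CDC6, which loads the replicative helicase, had 2501, 2605 and 2646 in FGF2 explants and 267, 353 and 225 in controls (3.22 ± 0.26, adjusted p = 9e-10). RRM2, the ribonucleotide reductase subunit that supplies nucleotides, averaged 16882 ± 625 in FGF2 explants and 2567 ± 351 in controls (2.72 ± 0.19), and the helicase subunit MCM5 11774 ± 421 in FGF2 explants and 2640.2 ± 295 in controls (2.16 ± 0.14). The topoisomerase TOP2A (2.40 ± 0.19), the mitotic kinases CDK1 (2.04 ± 0.17) and PLK1 (2.17 ± 0.19) and the spindle motor KIF11 (2.16 ± 0.18) rose by similar amounts. ORC3, an origin recognition subunit, was the replication gene that did not pass (0.10 ± 0.08, adjusted p = 0.29).

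Upstream of these, 21 of 30 genes of G1 control rose and 2 fell. CCND1, the cyclin that growth factor signals induce in progenitors, had 3962, 3861 and 4250.1 in FGF2 explants and 1282, 1207 and 1189 in controls (1.71 ± 0.11, adjusted p = 5.6e-11). E2F1, the S phase factor, rose by 3.01 ± 0.12, and MYCN, the progenitor member of the MYC family, had 2234, 2013 and 2168 in FGF2 explants and 947, 888 and 816 in controls (1.28 ± 0.13, adjusted p = 2e-08). MYC itself was 1409 ± 45.7 in FGF2 explants and 1484 ± 93 in controls and did not pass (-0.074 ± 0.17, adjusted p = 0.74). MYB, a factor of proliferating progenitors, had 1579, 1594 and 1520.2 in FGF2 explants and 39.4, 87.9 and 129 in controls (4.33 ± 0.37, adjusted p = 2.1e-09). Among CDK inhibitors CDKN1B fell (-0.49 ± 0.076), CDKN1A did not pass (-0.28 ± 0.12, adjusted p = 0.062, but called without the third control, -0.37, adjusted p = 0.027) and CDKN2B, with few reads, was higher, at 64.6, 82.2 and 114 in FGF2 explants and 6.06, 0 and 10.2 in controls (4.32 ± 0.91). Its change was 3.27 without the second control, which is at 0, and 5.01 without the third.

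**Figure D3:**
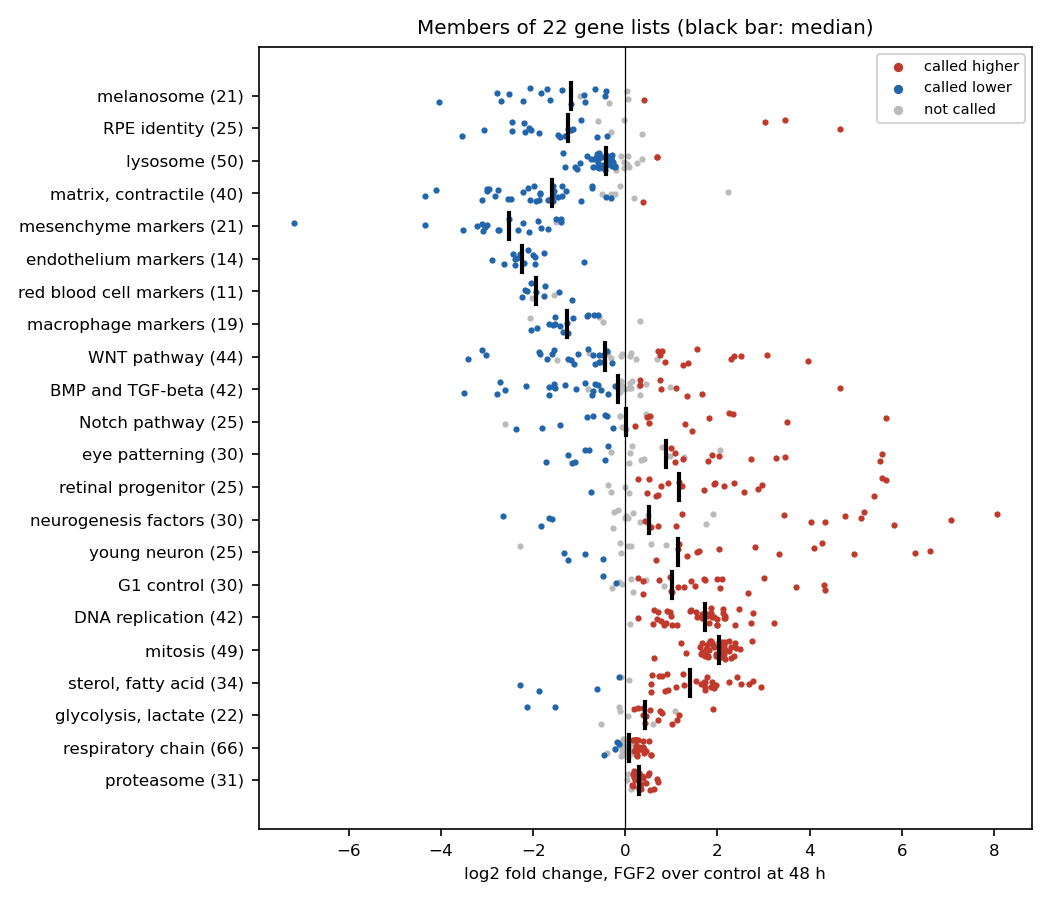
Each row is 1 of 22 gene lists with its number of tested members, each point a member at its log2 fold change of FGF2 over control at 48 h, coloured if called, and a black bar the list's median. Mitosis genes lie wholly to the right of 0, with a median of 2.04, and mesenchyme markers to the left, with a median of -2.53.

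Sterol and fatty acid synthesis genes rose together, 28 of 34 higher and 4 lower, with a median of 1.41. Squalene synthase FDFT1 had 14994, 14013 and 14364 in FGF2 explants and 1842, 2418 and 2125 in controls (2.77 ± 0.16, adjusted p = 1e-11), and the pathway's factor SREBF2 was higher too (1.28 ± 0.064). The sterol efflux pumps ABCA1 (-1.88 ± 0.15) and ABCG1 (-2.28 ± 0.19) and the liver X receptor NR1H3 (-0.61 ± 0.081) fell.

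Genes of glucose use rose in 14 of 22 cases and fell in 2. Enolase ENO1 had 198463, 195193 and 185265 in FGF2 explants and 49110.5, 54968 and 50312 in controls (1.91 ± 0.077, adjusted p = 5.3e-14), lactate dehydrogenase LDHA 220484 ± 12868 in FGF2 explants and 98741 ± 13316 in controls (1.17 ± 0.12), and hexokinase HK2 6036 ± 323 in FGF2 explants and 2797 ± 507 in controls (1.12 ± 0.11). The monocarboxylate transporter SLC16A7 (-1.51 ± 0.28) fell. Of 13 genes around pyruvate dehydrogenase 2 rose, a count that was 1 or 0 without any 1 of the 6 libraries, and 3 fell, the last including the kinases PDK3 (-0.44 ± 0.11) and PDK4, which had 503, 586 and 588 in FGF2 explants and 1497, 1128 and 1175 in controls (-1.17 ± 0.14, adjusted p = 5.7e-07). The citric acid cycle (9 of 20 higher, 5 lower), the respiratory chain (24 of 66 higher, 4 lower, median 0.086) and cytosolic ribosomal proteins (39 of 69 rows higher, 1 lower, median 0.19) had small fold changes, and quantile scaling left 18 ribosomal rows higher and 4 lower. Proteasome subunits were higher in 28 of 31 cases and mitochondrial ribosomal proteins in 40 of 69, with medians of 0.30 and 0.27.

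Matrix and contractile genes were mostly lower, 33 of 40 lower and 1 higher, with a median of -1.58. Fibronectin, FN1, had 13979, 12884 and 13643 in FGF2 explants and 87779, 73006 and 76823 in controls (-2.55 ± 0.15, adjusted p = 8.6e-12), and the smooth muscle actin ACTA2 1180.0, 1129 and 714 in FGF2 explants and 7760.1, 8587 and 7302 in controls (-3.00 ± 0.16, adjusted p = 2.6e-12). The groups did not overlap for either. The collagen cross-linking enzyme LOX (-2.82 ± 0.16), the transcription factors TWIST1 (-3.00 ± 0.27) and SNAI1 (-2.95 ± 0.12) and the intermediate filament VIM (-0.43 ± 0.065) fell. Of 26 collagen chains 14 fell and 6 rose, and chains of cartilage and vitreous were among those that rose. COL9A3 (ENSGALG00000005628), of collagen IX, had 40081, 48960.1 and 40726 in FGF2 explants and 741, 1294 and 844 in controls (5.53 ± 0.24, adjusted p = 1.9e-13), COL9A2 rose by 2.73 ± 0.13 and COL2A1 by 2.77 ± 0.11. The fibrillar chains COL1A2 (-1.68 ± 0.17) and COL3A1 (-3.23 ± 0.20) fell. Several matrix genes and the mesenchyme markers are the same genes, and those markers' summed levels are given above. Their part in the falls was not tested.

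CDH2, the N-cadherin of neural epithelia, had 24698, 25574 and 25392 in FGF2 explants and 10053, 10438 and 9826 in controls (1.32 ± 0.12, adjusted p = 3.4e-09), while CDH11, of mesenchyme, fell (-1.98 ± 0.079) and CDH1, E-cadherin, did not pass (0.08 ± 0.23, adjusted p = 0.8). Of 30 cadherins and protocadherins 6 rose and 14 fell. Among 36 junction and polarity genes 12 rose and 16 fell. The apical polarity protein CRB1 (1.60 ± 0.20) rose, and the gap junction protein GJA1 (-1.56 ± 0.14) fell. CLDN19, a claudin of mature RPE, was low throughout and higher with FGF2, at 37.3, 31.5 and 44.5 in FGF2 explants and 0, 9.03 and 9.21 in controls (3.04 ± 0.84, adjusted p = 0.0041), a change that was 1.92 without the first control, which is at 0. Axon guidance genes were lower in 32 and higher in 13 of 61 cases, with the secreted cue NTN1 lower (-1.73 ± 0.23) and SLIT1 higher (1.49 ± 0.15).

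Chromatin genes were higher in 15 and lower in 4 of 33 cases, the lower count being 1 or 2 without most single libraries. The de novo DNA methyltransferase DNMT3B had 7351, 6872 and 7230.1 in FGF2 explants and 1615, 1816 and 1575 in controls (2.10 ± 0.10, adjusted p = 5.6e-13). The RNA-binding protein LIN28B, of early progenitors (1.56 ± 0.26), the chromatin protein HMGA2 (1.02 ± 0.18) and the Polycomb methyltransferase EZH2 (0.93 ± 0.10) rose. Stress genes leaned lower, 16 of 27 down and 6 up. Haem oxygenase, HMOX1, had 1742, 1758 and 1389 in FGF2 explants and 6369, 6568 and 5888 in controls (-1.95 ± 0.10, adjusted p = 9.2e-13), and the cystine transporter SLC7A11 was lower (-2.47 ± 0.24). VEGFA, a growth factor for vessels that RPE secretes, was lower (-1.63 ± 0.16), while the prolyl hydroxylase P4HA2 was higher (1.97 ± 0.13). Of 22 p53 target and apoptosis genes 8 fell and 4 rose, a called share near the 54.6% of all genes. Of 17 YAP and TEAD genes 10 fell and 2 rose.

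The genes with the largest changes were named by rule, among called genes with a symbol, an average of 100 or more in the 6 libraries and no overlap between the 3 FGF2 and 3 control libraries, a separation that 64.9% of all tested genes showed. FEZF2 (ENSGALG00000007184), a forebrain zinc-finger factor, had 1245, 1444 and 1425 in FGF2 explants and 0, 0 and 3.07 in controls (9.74 ± 0.69, adjusted p = 1.5e-10). Its ratio of summed reads, 5239 in FGF2 explants to 3 in controls, was 1471 after scaling for library size. The 95% exact interval was 503 to 7137, which covers counting error only and takes the recovered reads as independent counts. NOS1, neuronal nitric oxide synthase, had 680.4, 598 and 764 in FGF2 explants and 0, 0 and 4.09 in controls (8.62 ± 0.85, adjusted p = 2.1e-08). Without the third control, the one with reads, the fitted changes were 10.42 for FEZF2 and 9.41 for NOS1, values that depend on the pseudocount. For 4 of the genes all 3 controls were at 0, so that their changes are lower bounds set by 3 reads per library. ZNF750, a zinc-finger factor, was at least 228-fold higher in FGF2 explants (538, 681 and 733 normalized counts), KK34 at least 169-fold (466, 450.1 and 534), PRR35 at least 93.8-fold (220.2, 355 and 229) and the POU factor POU3F1 at least 81.8-fold (282, 211 and 208). The AP-2 family factor TFAP2D (381 ± 72.3 in FGF2 explants, 1.37 ± 2.37 in controls), and the secreted proteins BPIFB2 (378 ± 158 in FGF2 explants, 3.03 ± 5.25 in controls) and AvBD5, a defensin (613 ± 236 in FGF2 explants, 4.8 ± 5.71 in controls), complete the list of high ones with FOXN4. At the low end stood the myogenic factors MYF6 (14.2, 0 and 10.4 in FGF2 explants, 203, 193 and 281 in controls, -5.32 ± 0.71) and MYF5 (46, 80.3 and 52.2 in FGF2 explants, 1375, 1303 and 1556 in controls, -4.58 ± 0.43), markers of muscle, and the smooth muscle myosin MYH11 (-4.11 ± 0.51). The MYF6 change was -4.08 without the second FGF2 replicate, which is at 0, and so smaller than that of MYF5, and -6.05 without the first. The matrix proteoglycan LUM (-4.35 ± 0.27), a mesenchyme marker, fell too. The others were the enzyme DMGDH (-4.66 ± 0.76), the secreted PI15 (-4.58 ± 0.41), GSG1L2 (-4.33 ± 0.44), the roof plate factor LMX1A (-4.20 ± 0.51), SLC35F3 (-4.19 ± 0.28) and MLANA, given above. The DMGDH change was -3.29 without the second FGF2 replicate and -5.90 without the first. In all, 22 genes were at 0 in every control and called higher, and 9 at 0 in every FGF2 library and called lower. These counts depend on depth, and the third FGF2 library was the deepest of the 6, with 72724381 reads. Among the 22 is a gene without a symbol that varied widely within some other groups, given at the end.

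Set against the response at 24 h, the 48 h response held more genes. At 24 h, where none of the libraries are shared with the 48 h comparison, 4466 genes were called (29.8%, with 15.5% higher and 14.3% lower). Of the 24 h calls, 70.5% were also called in the same direction at 48 h, and these 3147 genes are 38.4% of the 48 h calls, while 275 were called in opposite directions. The 2 effects differed by the test of their difference for 4524 genes (30.2%), 2208 with a more positive effect at 48 h (14.7%) and 2316 with a more negative one (15.4%). Such a difference can come from a change between the controls of 24 and 48 h as well as between the FGF2 explants, and these were not separated. Pigment genes showed it: 14 of 21 melanosome genes had a more negative effect at 48 h and 0 a more positive one (median -0.88). At 24 h 7 of the 21 were already called lower and 0 higher. Markers of some other cells shared this trait, with 0 more positive. The effect was more negative at 48 h for 17 of 21 mesenchyme (median -1.63) and 12 of 14 endothelial markers (-1.26). The same held for 6 of 11 red blood cell markers (-1.25). Macrophage and leukocyte markers had 4 of 19 more negative and 0 more positive (-0.42), near the 15.4% of all genes with a more negative effect. The part of these cells was not tested. PMEL fell at 48 h, whereas its change at 24 h was 0.0013 ± 0.18 (adjusted p = 1), a difference of -2.08 ± 0.25 (48 h minus 24 h, adjusted p = 3.4e-06). MITF was lower at 48 h and higher at 24 h (0.33 ± 0.12, adjusted p = 0.042), a difference of -0.94 ± 0.17 (adjusted p = 0.00027). RLBP1 likewise was lower at 48 h and higher at 24 h (0.88 ± 0.28, adjusted p = 0.022), a difference of -2.34 ± 0.40 (adjusted p = 0.00016). OTX2, by contrast, had already fallen at 24 h (-1.16 ± 0.079) and showed no called difference between times (-0.013 ± 0.11, adjusted p = 0.95). Of 49 mitotic genes, 43 had a more positive effect at 48 h and 0 a more negative one. All 49 were already called higher at 24 h (median 1.03), as were 35 of 42 replication genes (0.72). HES5, high at 48 h, had a change of 0.72 ± 0.34 at 24 h (adjusted p = 0.12), a difference of 4.94 ± 0.48 (adjusted p = 2.3e-07). SOX2 rose more at 48 h than at 24 h (2.95 ± 0.26), a difference of 2.61 ± 0.36 (adjusted p = 1.5e-05). SIX6 was 2.89 ± 0.13 at 48 h and 3.42 ± 0.13 at 24 h, a difference of -0.53 ± 0.18 (adjusted p = 0.029), not called without the second control or the third FGF2 replicate of 48 h, or without the second replicate of either group of 24 h (adjusted p = 0.0543 to 0.067). FGF10 fell at 48 h and rose at 24 h (1.50 ± 0.33), a difference of -2.69 ± 0.46 (adjusted p = 0.00015).

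Under DCA, FGF2 against no FGF2 called 5086 genes at 48 h (33.9%, 17.4% higher and 16.5% lower), in libraries that the comparison without DCA does not share. Of these, 68.2% were called in the same direction without DCA, and these 3469 genes are 42.4% of the calls without DCA, against 311 in opposite directions. The effects differed for 4517 genes (30.1%), 2267 more positive under DCA (15.1%) and 2250 more negative (15.0%). Such a difference can come from a change by DCA in explants without FGF2 as well as in those with it, and these were not separated. Replication genes rose less under DCA, 37 of 42 with a more negative effect and 0 with a more positive one. Still called higher under DCA were 32 of these 42 (median 0.72) and 45 of 49 mitotic genes (0.98), with 0 lower in both. MYB did not pass under DCA (-0.076 ± 0.37, adjusted p = 0.9), with a difference of -4.41 ± 0.52 (adjusted p = 2.4e-06). SMOC1 rose under DCA by 1.96 ± 0.22, a difference of -3.61 ± 0.31 from its effect without it (adjusted p = 7.1e-08), and JAG1, which fell without DCA, did not pass under it (0.43 ± 0.17, adjusted p = 0.0502, difference 2.79 ± 0.23, adjusted p = 6.8e-08). HES5 had an effect of 1.09 ± 0.34 under DCA, far below that without it, a difference of -4.56 ± 0.48 (adjusted p = 6.8e-07). FGF10 rose under DCA (1.21 ± 0.33, adjusted p = 0.0063) and fell without it, a difference of 2.39 ± 0.46 (adjusted p = 0.00049). HMOX1 fell less under DCA, a difference of 1.47 ± 0.14 (adjusted p = 1.6e-07). For 21 melanosome genes 8 effects were more positive under DCA and 0 more negative (median 0.30). Differences were larger for some markers of other cells. More positive were 17 of 21 mesenchyme (median 1.38), 12 of 14 endothelial (1.16) and 6 of 11 red blood cell markers (1.34), and 0 more negative. Matrix and contractile genes were more positive in 28 and more negative in 2 of 40 cases (1.14). Macrophage and leukocyte markers had 1 in each direction of 19. The part of these cells was not tested. TYR was lower under DCA as well (-2.48 ± 0.24), a difference of 0.30 ± 0.33 (adjusted p = 0.55).

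**Figure D4:**
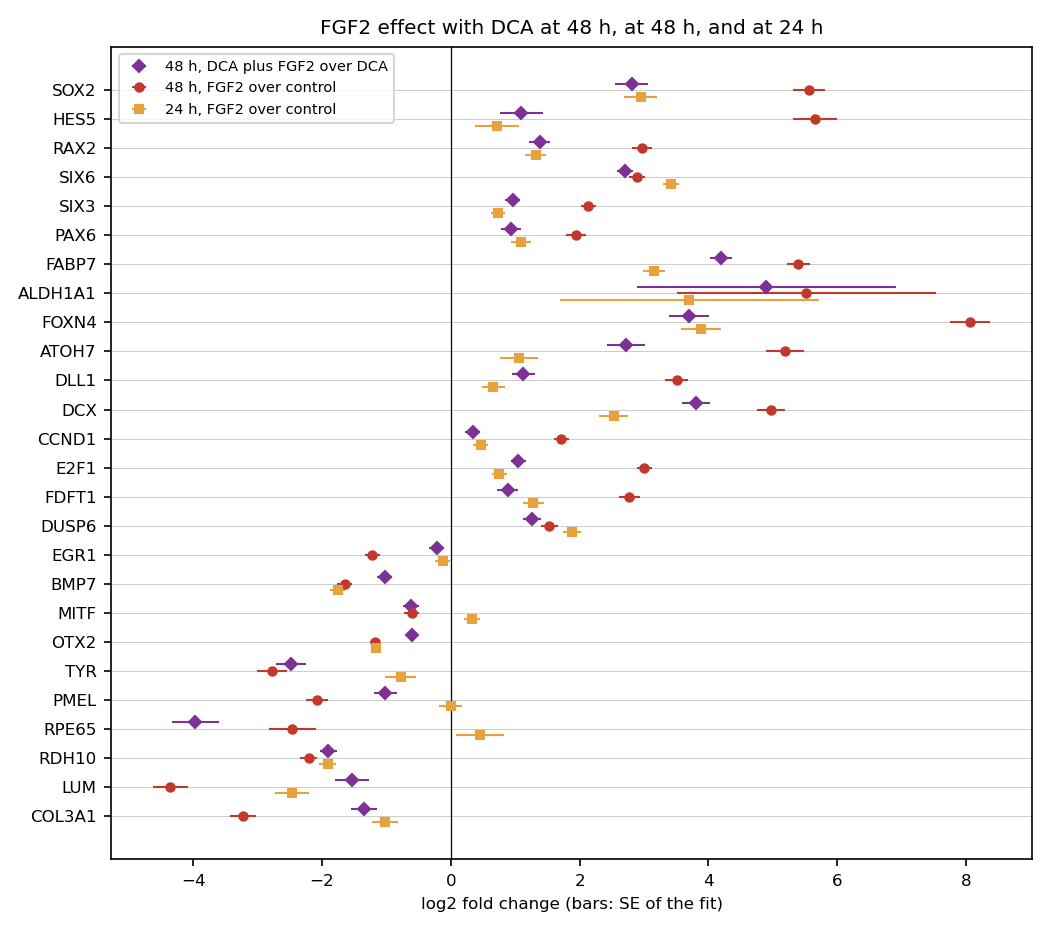
The log2 fold change of FGF2 (x axis, bars of 1 SE) is shown for 26 genes (rows) with DCA at 48 h, without DCA at 48 h and without DCA at 24 h. HES5 lies far above 0 at 48 h without DCA and at 0.72 at 24 h, and PMEL lies below 0 at 48 h and at 0 at 24 h.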

How the data were processed

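Per the labels' protocols, total RNA (100 ng) from 3 pooled explants per replicate was made into directional poly(A) libraries with 13 PCR cycles. The deposited table holds 1 signal per gene and library, a read count, possibly an estimated one, that the authors divided by a size factor of the library. Per the submitters' processing notes the tools were DESeq2 1.34.0, StringTie 2.1.4, STAR 2.7.5b and Trim Galore 0.6.4, on the build GRCg6a. Settings for counting and strand were not given in the sources used here. Reads of overlapping genes, antisense partners and close paralogs therefore remain uncertain. Of 24356 rows, 13605 carry a symbol, and 286 rows share one with another row. No gene coordinates were used.

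Division of a column by the smallest step in it gave whole numbers of reads everywhere (100%, tolerance 0.001), and the depths in the report are sums of these reads. With StringTie among the tools, these reads may be estimates, which could not be settled here. Values were taken as log2(normalized count + 1), which shrinks fold changes of genes with few reads in every library, while 1 library at 0 can make them larger than ratios of mean counts. Rows averaging 10 or more across all libraries were kept, 15001 in number and 11469 of them with a symbol. Counts of list members cover kept rows only. A gene made only with FGF2 can pass this filter, while one silent throughout cannot. One limma 3.58.1 model (limma-trend, R 4.3.3) of 8 groups (16 residual degrees of freedom) gave every contrast, with Benjamini-Hochberg adjustment over the genes tested and a call under 0.05. Errors given with fold changes are standard errors of this fit. A difference between effects is an interaction contrast, 48 h minus 24 h or with DCA minus without DCA. It does not tell whether the groups with FGF2 or those without it changed. Replicates are biological per the labels, and 3 a group limits the precision. The model was also run on simulated counts, and the outcome is not given here. Bounds on fold changes use 3 reads per library and cover counting error only. They and the exact interval take the recovered reads as independent counts, which estimated reads need not be.

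Alternatives were pseudocounts of 0.5 and 10, no filter or a mean of at least 100, quantile and TMM scaling, a fit of the contrast's own libraries, the replicate number as a block, edgeR 4.0.16 and DESeq2 1.42.0 on the recovered reads, and each library left out. Named genes follow a rule: the 10 genes at each end of the fold change, if they have a symbol, a mean of 100 or more and separate replicates, up to 6 called genes in each direction with the smallest adjusted p and up to 4 others with the highest mean of a list, and a fixed set of eye, signalling and growth genes. Only some that meet the rule are named. Genes and gene lists were chosen with earlier results of these data known, and lists can share members. Named outside the rule, after their values were seen, were APCDD1, CDC6, CDK1, CDKN2B, CTSD, DKK1, FDFT1, FN1, GPR143, ID2, KCNJ13, KIF11, LHX1, MCM5, MSX1, MYB, NHLH1, PLK1, RRM2, SLC16A8, SLC7A11, SOX10, SPRY4, TCF21, TGFBR2, TOP2A, TWIST1 and VIM.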

Additional observations from a re-analysis of the deposited data

Results flagged for a closer look

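The response to FGF2 at 48 h differed from that at 24 h, by the test of the difference, for 4524 genes, and the response with DCA differed from that without it for 4517 genes (limma, adjusted p under 0.05). Some named genes were called in opposite directions at the 2 times, and the log2 difference of their effects, 48 h minus 24 h, is given here. Called higher at 48 h and lower at 24 h were CRB1 (2.63), HES1 (0.82) and LFNG (1.90). Called lower at 48 h and higher at 24 h were BMP4 (-1.68), FGF10 (-2.69), ID1 (-1.38), MITF (-0.94), NTN1 (-3.73), RLBP1 (-2.34) and SOX10 (-2.39). Between explants with and without DCA at 48 h, LFNG (-1.71) rose without DCA and fell with it, and FGF10 (2.39) and VIM (1.06) fell without DCA and rose with it (log2 difference, with DCA minus without). SOX10, a crest and melanocyte marker, and the pigment gene MITF are among those that changed direction with time, and the part of other cells in these values was not tested.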

How the results depend on the processing

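The 3 counts of called genes stayed within 1.5 times of the values in the report under every alternative tried. For FGF2 against control at 48 h they ran from 7534 (mean of at least 100) to 8597 (only the libraries of the contrast), with 8210 by edgeR and 8421 by DESeq2 on the recovered reads, against 8187 in the report. Leaving out 1 library gave 7404 to 7621 genes, 3819 to 4371 for the difference from 24 h and 3977 to 4387 for the difference with DCA. No pairing by replicate number was seen: deviations of same-numbered FGF2 and control libraries correlated at 0.028, -0.020 and 0.017. Differently numbered ones correlated at -0.075 to 0.065. Such values cannot show whether same-numbered libraries shared a batch. The fit with the replicate number as a block called 8162, 4465 and 4490 genes. Of 198 named genes, 8 lost their call under at least 1 of the alternatives, and none changed direction while called. They are FOXD1, HPS4, ALDH1A1, TTR, ISL1, LHX1, PDE6B and SIX6 (for its difference between times), and the cause was not tested. Small counts of list members moved by more than 1.5 times without single libraries. Melanosome genes higher went to 0 without any of the 6, phototransduction genes higher to 0 without any but the first FGF2 replicate, and genes around pyruvate dehydrogenase higher to 1 or 0 without any. Chromatin genes lower went to 1 or 2 without any but the second control or the third FGF2 replicate, respiratory chain genes lower to 2 without the second control or the second FGF2 replicate or the third, lens markers lower to 2 without the second control, G1 genes lower to 1 and retinal progenitor genes lower to 2 without the first FGF2 replicate, and matrix genes higher to 2 without the first control. Quantile scaling left 18 cytosolic ribosomal rows higher and 4 lower, with 7 respiratory chain genes lower. A mean of at least 100, which removes genes, left 8 neurogenesis factors, 3 FGF ligands and receptors and 1 gene of the RPE list higher. It left 8 crest and muscle and 2 lens markers lower. Scaling moved the median log2 fold change of all genes by under 0.1. At this depth, log2 changes of genes with few reads have wide errors, and 3 replicates a group limit them further.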

Other observations

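Other developmental factors rose with FGF2 at 48 h, chosen after their values were seen. ZIC1, a zinc-finger factor of the dorsal neural tube and the eye, had 2742, 3504 and 3560.3 normalized counts in FGF2 explants and 32.3, 113 and 59.4 in controls (5.73 ± 0.34, adjusted p = 1.1e-11 by limma). Its paralogs ZIC2 (2392 ± 121 in FGF2 explants, 50.1 ± 14.1 in controls, 5.58 ± 0.40) and ZIC4 (350.4 ± 24.8 in FGF2 explants, 7.65 ± 6.68 in controls, 6.03 ± 1.15) rose too, the change of ZIC4 being 4.82 without the first control and 6.68 without the third. PRSS56, a serine protease linked to eye size in mouse and human, had 2229.5, 2715 and 3445 in FGF2 explants and 18.2, 27.1 and 19.5 in controls (6.95 ± 0.44, adjusted p = 2.9e-11). All 4 had FGF2 libraries far above the controls.

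A gene without a symbol, ENSGALG00000052797, was read at 3688, 3433 and 3658 normalized counts in the FGF2 libraries and at 0 in all 3 controls of 48 h. At 24 h it varied between replicates, with 2061 ± 1786 in FGF2 explants and 2747 ± 505 in controls, and with DCA at 48 h it was 1631 ± 2826 in DCA plus FGF2 and 3633 ± 269.6 in DCA explants. The SD was thus above the mean in DCA plus FGF2 explants at 48 h and near it in FGF2 explants at 24 h. What made libraries of the same treatment differ was not tested. The adjusted p of this gene at 48 h was 0.0057 (limma), and no fold is given against controls at 0. It is among the 22 genes at 0 in every control and called higher, and whether its call reflects FGF2 was not tested.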
